A study of Arabidopsis thaliana with 8 samples.

Results

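The probe sets described here were strongly higher in Arabidopsis thaliana after 24 h of cold and still strongly higher after 7 days. Members were chosen from the measured values. With L as log2 of the group's mean signal plus 8, a probe set was taken if L exceeded the 0 h value by at least 2 at 24 h and at 7 d, and if each of the 4 arrays at these times lay above both 0 h arrays. These 2 differences are called rises below. Of 22746 probe sets other than controls, 158 reached a rise of 2 at 24 h, 53 did so at 7 d, and 31 met every condition. Of these, 10 were left out by name or position, among them COR15A, COR15B, LTI30, COR27, SWEET13, XTH20, AT3G55580 and the chloroplast gene rbcL, which leaves 21 members.

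Col-0 seeds were stratified in the cold for 4 days, and plants were raised on phytagar at 24 °C in unbroken light (100 µmol m-2 s-1). At an age of 10 days the whole plants entered the experiment. The 0 h plants were harvested in these conditions. The other groups were placed at 4 °C in dimmer unbroken light (about 25 µmol m-2 s-1) for 1 h, 24 h or 7 d, so that the cold and the lower light came together and the 7 d plants were also older. All 8 arrays, 2 per group, carry RNA of wild-type plants with no transgene or mutation named in the labels. The labels do not say whether both arrays of a time point come from different cultures. The p-values below therefore cover just the variation between these arrays, which could be technical.

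Cold acclimation is the process by which temperate plants become more freezing tolerant during days at low, non-freezing temperature. In Arabidopsis the CBF transcription factors are induced early and bind the CRT/DRE element in the promoters of many cold-regulated genes. Products of these genes protect membranes and chloroplasts, remodel the cell wall and raise the level of compatible solutes, and many of their transcripts are known to stay high for as long as the cold lasts.

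The members comprise 9 probe sets paired with 1 gene, 1 paired with 2 genes and therefore not named, and 11 that the annotation used here does not list and that are given by probe set ID. All 21 passed the filter on dim probe sets. That filter asked for 2 or more arrays with a signal over the 40th percentile of the array, which the rule makes likely, so this count carries no weight. On both 0 h arrays 4 members lay at or below that percentile (AT1G16850, PDF2.1, 264400_at and 245807_at), and small differences between their 0 h arrays are therefore poorly measured. The signals are MAS5 values, and every array has a trimmed mean of about 100. Since the plants were sampled whole, fewer cells of a type and less RNA per cell cannot be told apart. A leaf transcript (LHCB4.1, 4854 ± 1724 at 0 h, mean ± SD, n = 2) and a root transcript (PYK10, 2272 ± 135) were both measured, and the labelled tissue is the whole plant. The root-hair gene EXPA7 stood at 39.5 ± 3.06 at 0 h. On each 0 h array it lay below the array median (41.8 and 42.3), so its signal does not show that its transcript was present. Replicate arrays correlated at r = 0.956 at 24 h to 0.972 at 1 h across 15017 tested probe sets, which are not independent replicates. The 3' to 5' signal ratio of the actin controls ranged from 2.95 to 6.53 over the arrays, and that of the GAPDH controls from 1.22 to 1.45.

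The members' rises ranged from 2.20 to 6.66 at 24 h, with a median of 3.18, and from 2.04 to 4.80 at 7 d, with a median of 2.85. Over all 22746 probe sets the medians were -0.03 and -0.06. These values chose the members and are given as a description, and both are set against the same 0 h arrays. The rise was larger at 24 h for 14 members and at 7 d for 7. Just inside the threshold were AT1G27200, with rises of 2.92 at 24 h and 2.04 at 7 d, and AT5G62280, with 2.20 at 24 h and 2.101 at 7 d. Just outside it were AT2G23120, a late embryogenesis abundant protein gene, with 2.58 at 24 h and 1.98 at 7 d, and RBL (REBELOTE), with 2.60 at 24 h and 1.97 at 7 d.

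**Figure D1:**
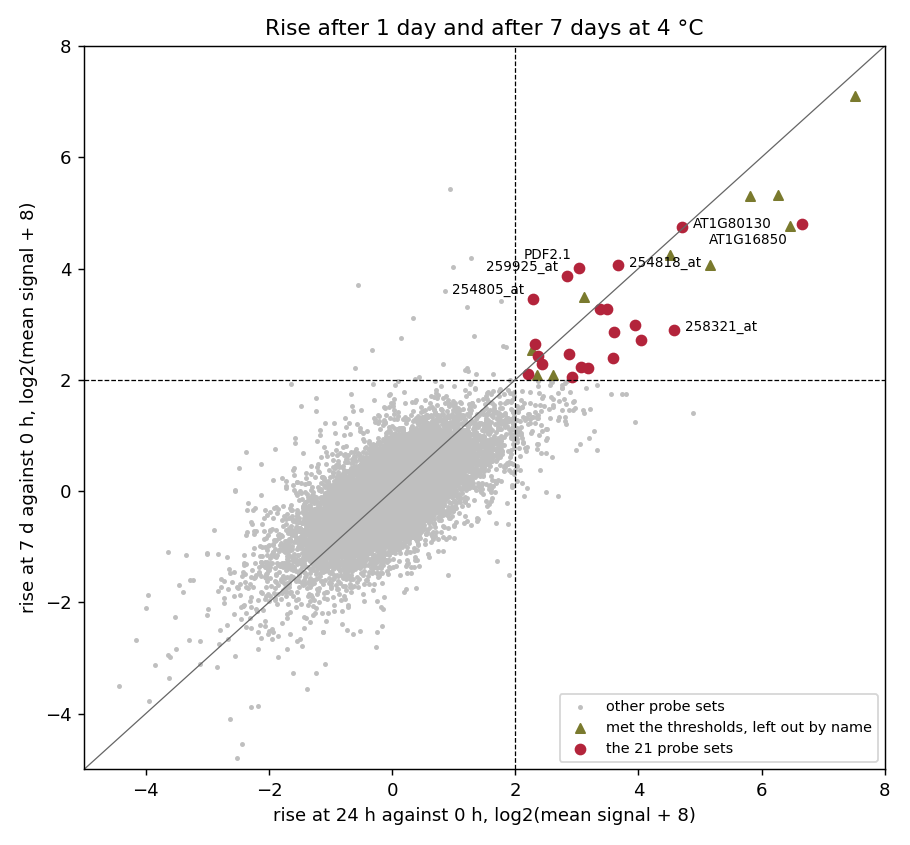
Rise at 24 h (x axis) against rise at 7 d (y axis) in log2(mean signal + 8), for every probe set other than controls. Dashed lines mark the threshold of 2 and the diagonal marks equal rises. AT1G16850 lies farthest right of the 21 red points with 6.66 at 24 h, and 7 red points lie above the diagonal.

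The named members are taken in turn, beginning with those whose products are annotated or known at membranes, outside the cell or in the wall. AT1G16850, annotated as a transmembrane protein gene, went from the lowest to a high signal. Its signals were 2.67 and 1.05 at 0 h, 2.60 and 6.93 at 1 h, 914 and 1063 at 24 h, and 269 and 263 at 7 d. The 0 h and 1 h arrays were all near the bottom of the scale, and both 7 d arrays lay close together, below both 24 h arrays. The rises were 6.66 at 24 h and 4.80 at 7 d, and as both 0 h signals lay under the offset of 8, their size depends on it. At 7 d the mean signal stood above 0 h by 26.8% of the gain seen at 24 h, and by 24.6% to 29.3% over the 4 pairs of a 7 d and a 24 h array. This measure is called the share kept below. AT4G30650 belongs to the small hydrophobic membrane proteins of the RCI2 family, which are known as low-temperature and salt responsive. Its signals were 201 and 267 at 0 h, 144 and 391 at 1 h, 2703 and 2715 at 24 h, and 2035 and 2621 at 7 d. The 24 h arrays nearly coincided, and both 7 d arrays lay below them, with a share kept of 84.6% (72.6% to 96.7%). At 1 h replicate 1 was below and replicate 2 above both 0 h arrays.

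PDF2.1 encodes a plant defensin, a small cysteine-rich secreted peptide of a family known for antifungal members. Its signals were 18.2 and 18.6 at 0 h, 14.5 and 6.84 at 1 h, 212 and 204 at 24 h, and 558 and 271 at 7 d. Both 7 d arrays lay above both 24 h arrays, but they were far apart, replicate 1 being the higher. The share kept was 209%, with a wide range of 130.2% to 291%. ATPMEPCRB, also called PME41, encodes a pectin methylesterase, an enzyme that removes methyl groups from wall pectin and so changes wall stiffness. Its signals were 24.0 and 28.6 at 0 h, 57.6 and 58.7 at 1 h, 189 and 137 at 24 h, and 201 and 215 at 7 d. Each group lay above the one before it with no overlap of arrays, and the share kept was 132% (107% to 169%).

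The other named members encode proteins of other or unknown roles. AT1G80130, a gene for a tetratricopeptide repeat protein, is the member with the next largest mean of both rises. Its signals were 55.0 and 37.5 at 0 h, 64.4 and 52.6 at 1 h, 1343 and 1490.1 at 24 h, and 1288 and 1621 at 7 d. The 7 d arrays bracketed the 24 h arrays, and the share kept was 103% (86.0% to 121%). AT1G69570 encodes a Dof-type zinc finger transcription factor of the cycling Dof group, whose members are known as repressors of the flowering gene CONSTANS. Its signals were 35.2 and 39.5 at 0 h, 55.7 and 62.7 at 1 h, 196 and 256 at 24 h, and 274 and 198 at 7 d. The arrays of 24 h and 7 d overlapped, and the share kept was 106% (73.6% to 149%).

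AT1G27200, a glycosyltransferase-family gene, had signals of 30.4 and 26.9 at 0 h, 35.4 and 45.4 at 1 h, 229 and 309 at 24 h, and 166 and 119 at 7 d. Both 7 d arrays lay below both 24 h arrays, and the share kept was 47.5% (32.4% to 68.7%). AT1G11210 encodes a protein with a domain of unknown function, and its signals were 3.74 and 31.1 at 0 h, 18.8 and 113 at 1 h, 306 and 287 at 24 h, and 138 and 112 at 7 d. Replicate 2 was well above replicate 1 at 0 h and again at 1 h, while the arrays agreed at 24 h, and the share kept was 38.5% (32.6% to 44.8%). AT5G62280, another gene for a domain of unknown function, had signals of 25.7 and 29.8 at 0 h, 34.3 and 51.3 at 1 h, 125 and 188 at 24 h, and 143 and 147 at 7 d. The 7 d arrays fell between the 24 h arrays, and the share kept was 91.3% (71.9% to 123%).

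The probe set paired with 2 genes, 246481_s_at, reached the largest signals of the group. Its signals were 567 and 1345 at 0 h, 515 and 1603.15 at 1 h, 6810.3 and 13219 at 24 h, and 9531 and 9032 at 7 d. Replicate 2 was more than 1.5 times replicate 1 at 0 h, 1 h and 24 h, but the 7 d arrays were close to each other, so the rises of 3.38 at 24 h and 3.27 at 7 d carry a wide error. How much of the signal comes from either gene cannot be told apart.

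Among the 11 unlisted members, those with the smaller shares kept, up to 56.0%, are taken first. For 258321_at the signals were 88.4 and 119 at 0 h, 108 and 137 at 1 h, 2244 and 3062 at 24 h, and 887 and 766 at 7 d, with a share kept of 28.4% (22.4% to 36.6%). For 265119_at they were 69.5 and 50.5 at 0 h, 69.0 and 57.8 at 1 h, 1242 and 989 at 24 h, and 513 and 369.8 at 7 d, with 36.1% kept (26.2% to 48.7%). In both, each 7 d array was under every 24 h array and over every 0 h array. For 259516_at they were 379.8 and 716 at 0 h, 449 and 934 at 1 h, 6298 and 10787 at 24 h, and 4607 and 4189 at 7 d, with 48.2% kept. For 259789_at they were 136 and 237 at 0 h, 137 and 244 at 1 h, 1869 and 2819.6 at 24 h, and 1470.5 and 1319.8 at 7 d, with 56.0% kept. In this pair replicate 2 exceeded replicate 1 at 0 h, 1 h and 24 h and not at 7 d. For 249741_at the signals were 53.9 and 133 at 0 h, 163 and 535 at 1 h, 785 and 895 at 24 h, and 542 and 389 at 7 d, with 49.8% kept, and its 1 h arrays lay above both 0 h arrays. For 264400_at they were 10.4 and 3.12 at 0 h, 13.5 and 17.1 at 1 h, 122 and 130.03 at 24 h, and 25.7 and 95.5 at 7 d, with 45.2% kept and a range of 15.4% to 77.1%, and its 7 d arrays were far apart.

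The other unlisted members had a 7 d signal closer to that at 24 h, or above it. For 254805_at the signals were 303 and 188 at 0 h, 248 and 192 at 1 h, 1256 and 1218 at 24 h, and 2898 and 2605 at 7 d, with a share kept of 253% (234% to 273%), the highest of all 21. For 259925_at they were 42.1 and 42.7 at 0 h, 70.01 and 28.5 at 1 h, 391 and 316 at 24 h, and 627 and 821 at 7 d, with 219% kept (168% to 285%). Both had 7 d arrays above all earlier ones. For 254818_at they were 439 and 336 at 0 h, 455 and 423 at 1 h, 4032 and 6035 at 24 h, and 6849.6 and 6307 at 7 d, with 133% kept. For 254080_at they were 333 and 298 at 0 h, 285 and 370.2 at 1 h, 1797 and 1701 at 24 h, and 1209 and 1932 at 7 d, with 87.5% kept. For 245807_at they were 15.3 and 4.40 at 0 h, 11.9 and 24.2 at 1 h, 104 and 140.4 at 24 h, and 111 and 69.6 at 7 d, with 71.8% kept. The last of these had dim 0 h arrays that differed by more than 2-fold, and its 24 h and 7 d arrays overlapped.

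**Figure D2:**
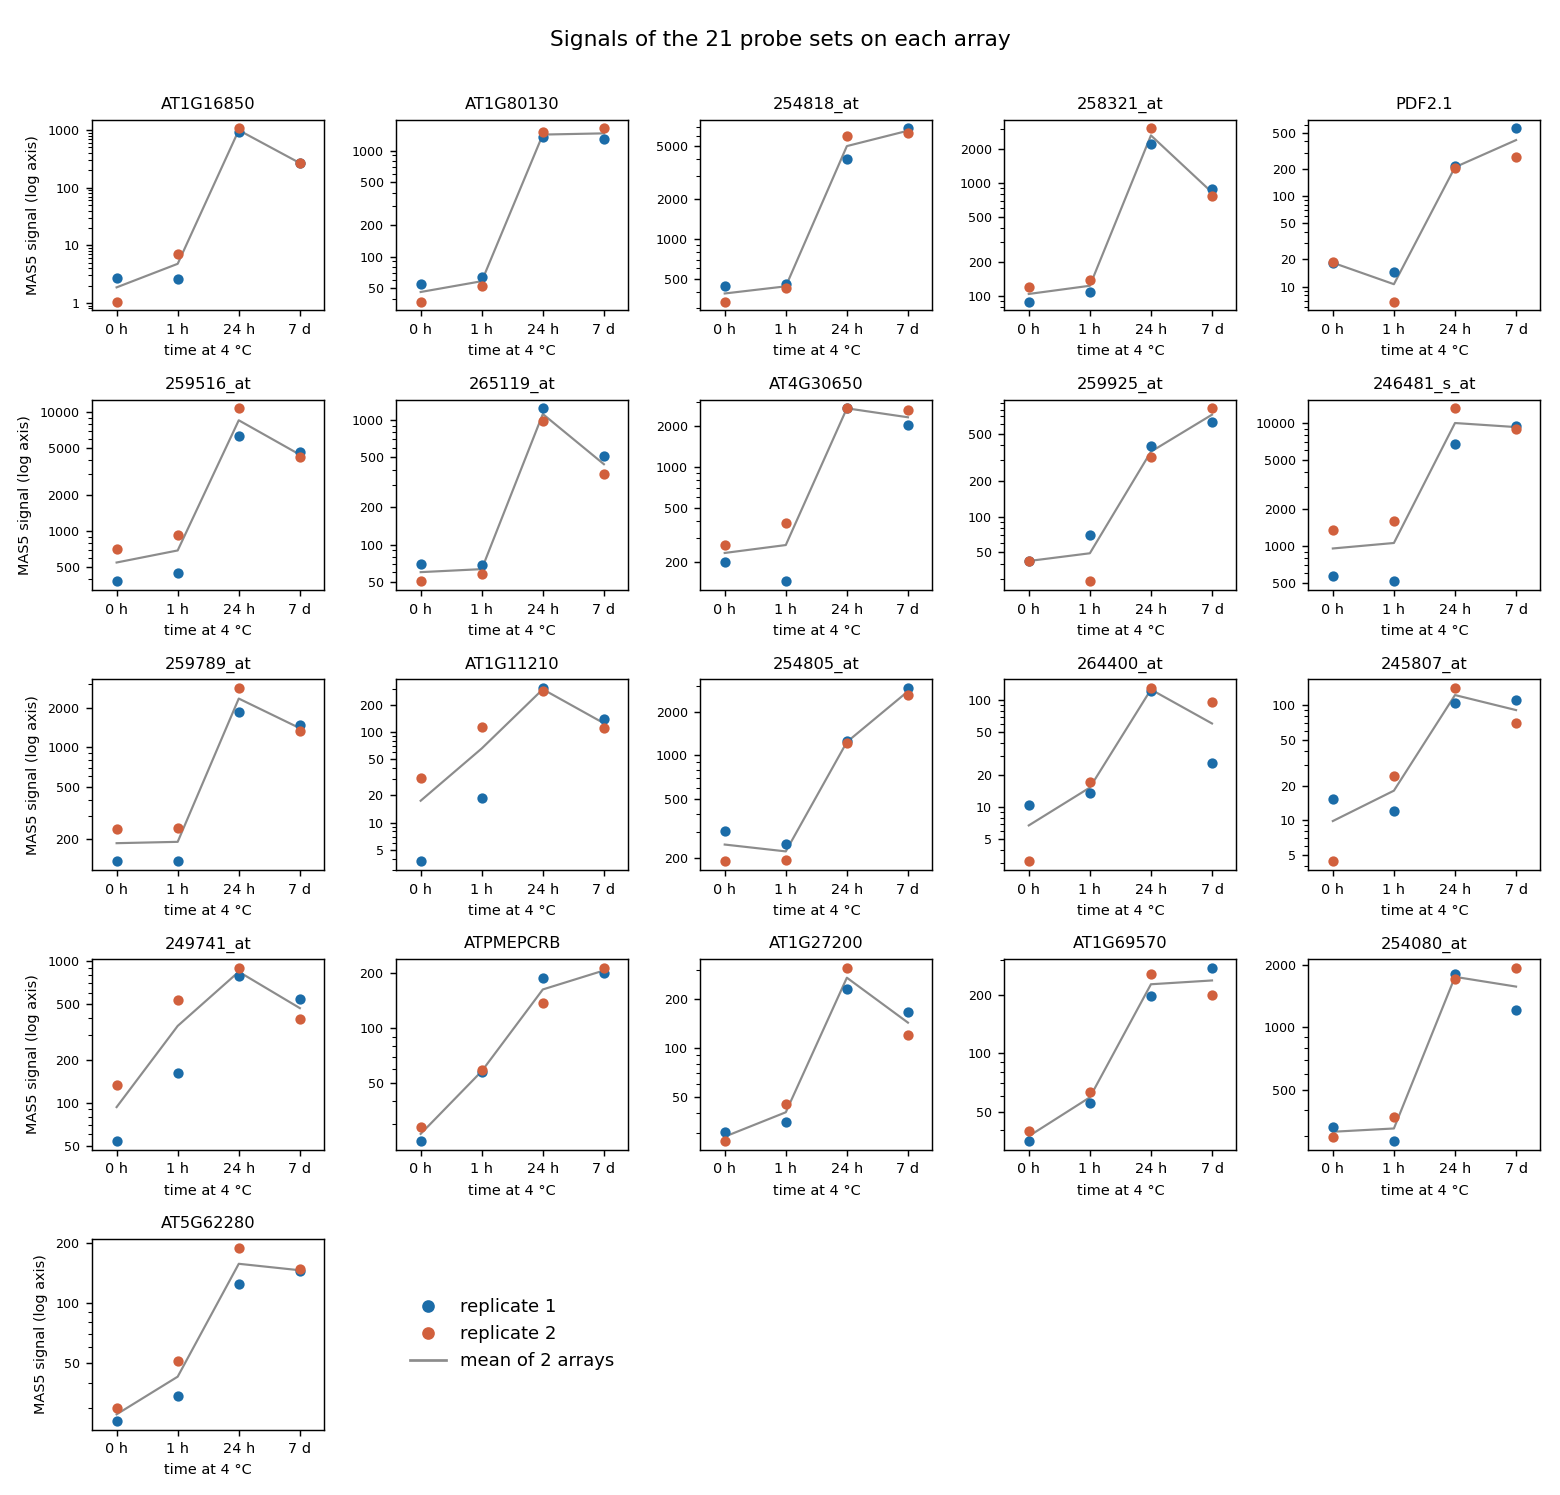
MAS5 signal (log axis) of each of the 21 probe sets on the 8 arrays, by time at 4 °C, with replicate 1 in blue, replicate 2 in orange and a line through the means of 2 arrays. Panels run from the largest to the smallest mean rise. The 24 h and 7 d points lie above the 0 h points in every panel, as the rule requires, and the 7 d points lie on both sides of the 24 h points.

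Over the 21 members the share kept ranged from 26.8% to 253%, with a median of 84.6%. It was under 50% for 8 members, from 50% to 100% for 6 and over 100% for 7. It stayed under 100% in all 4 array pairs for 10 members and over 100% in all of them for 5. This is the same as both 7 d arrays lying below or above both 24 h arrays. That order was found for 25.5% (below) and 26.3% (above) of all tested probe sets. These were not chosen by rises on the 24 h and 7 d arrays as the members were, so they are not a like measure.

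Whether the level moved between 24 h and 7 d was asked by the difference of these groups, which the rule did not use, although it used the arrays of both. Of the members 4 fell and 1 rose, by limma on log2(signal + 8) with Benjamini-Hochberg adjustment over 15017 probe sets. AT1G16850 fell by 1.86 ± 0.22 (SE) from 989 ± 106 to 266 ± 4.76 (SD, n = 2; limma adjusted p = 0.000931). The fit also takes in its 0 h and 1 h arrays, all under the offset of 8, so this p depends on the offset. The limma adjusted p was 0.0161 with log2(signal + 1) and 8.79e-05 with log2(signal + 32). The unlisted 258321_at and 265119_at had differences of -1.66 ± 0.22 (limma adjusted p = 0.00165) and -1.33 ± 0.23 (limma adjusted p = 0.00588). The glycosyltransferase-family gene AT1G27200 had a difference of -0.88 ± 0.23 (limma adjusted p = 0.0368). The 1 riser was 254805_at, from 1237 ± 26.7 to 2751 ± 207, a difference of 1.15 ± 0.23 (limma adjusted p = 0.0125).

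The 5 calls are 23.8% of the members, where 9.3% of all tested probe sets were called in this comparison, 4.46% lower and 4.83% higher. The members' median difference was -0.23 against -0.01 for all tested. Both 7 d arrays lay below both 24 h arrays for 10 members and above for 5, and this was so for 25.5% and 26.3% of all tested probe sets. The members were chosen by large rises on these same 24 h and 7 d arrays, and some passed the filter through them. The values of all tested probe sets are therefore not a like measure for the members, and nothing is read from these comparisons. The calls of AT1G16850, 258321_at and 265119_at were kept with each array left out. That of 254805_at was not made with 24 h replicate 1 removed (adjusted p = 0.0501), nor with 24 h replicate 2 (0.0593) or 7 d replicate 1 (0.0935) removed. That of AT1G27200 was not made with 24 h replicate 2 (0.19), 7 d replicate 1 (0.0733) or 7 d replicate 2 (0.193) removed.

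The other 16 members did not pass, which does not show that their levels were equal. The 95% interval of the difference lay within -1 and 1 for 7 of them. AT1G80130 had -0.44 to 0.50 around a difference of 0.03, AT1G69570 -0.42 to 0.53, AT5G62280 -0.61 to 0.46 and ATPMEPCRB -0.10 to 0.80. The interval of AT4G30650 was -0.995 to 0.54. For PDF2.1 the difference was 0.88 ± 0.31 (adjusted p = 0.0975), and without 7 d replicate 2 it was 1.39 and called (adjusted p = 0.0321). For 259925_at it was 1.01 ± 0.30 (adjusted p = 0.058), and it was called without either 1 h array (adjusted p = 0.0181 and 0.0179). AT1G11210 and 246481_s_at had the widest intervals, -2.53 to 0.13 and -1.12 to 1.06, beside replicates more than 2-fold apart at 0 h and 1 h, a spread that enters their variance. With only the 4 arrays of 24 h and 7 d, AT1G11210 was called lower (limma adjusted p = 0.00375). So were 249741_at (0.0295) and 259516_at (0.0397), and 259925_at was called higher (0.0125). Without 7 d replicate 2, 264400_at was at -1.99 (adjusted p = 0.0229).

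**Figure D3:**
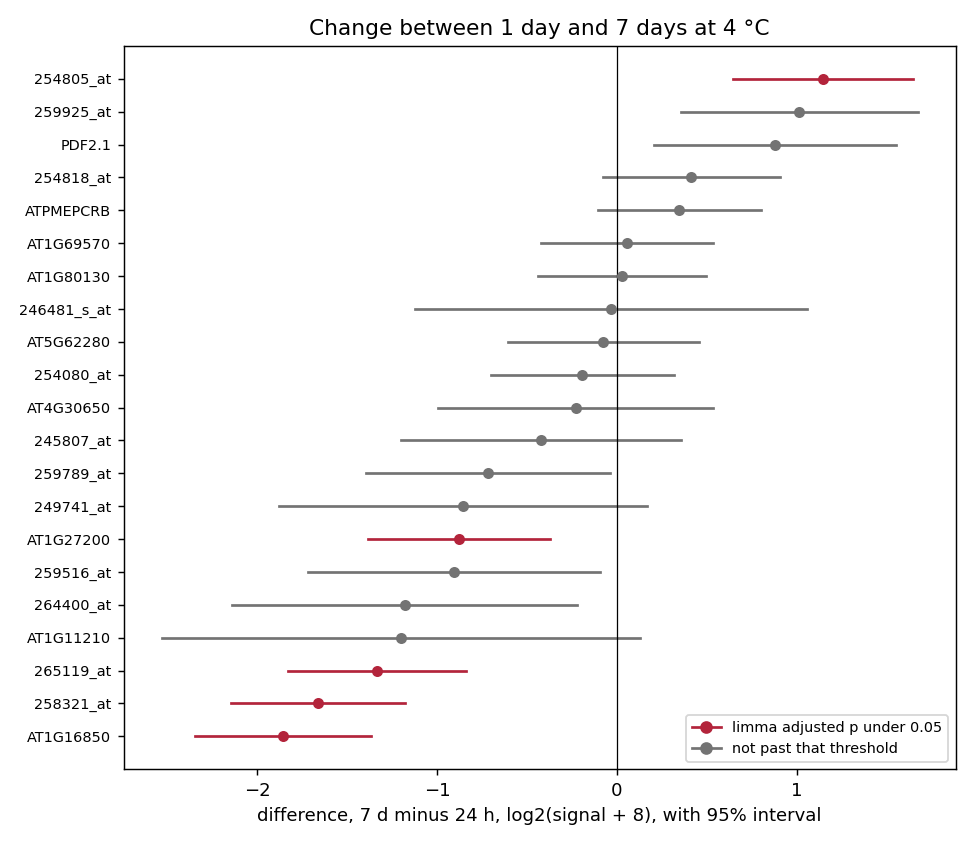
Difference of 7 d minus 24 h in log2(signal + 8) for the 21 members, with 95% intervals from the limma fit to 8 arrays. Red marks an adjusted p under 0.05: 4 members lie left of 0, led by AT1G16850 at -1.86, and 254805_at lies right of 0 at 1.15.

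What the members did in the first hour was asked by 1 h against 0 h. The rule did not use the 1 h arrays, but it used the 0 h arrays and favours probe sets that were low on them, so this difference leans upward among members. By limma 0 of 21 passed, where 0.32% of all tested probe sets did (0.313% higher and 0.00666% lower), and 4 had an unadjusted p under 0.05 (4.56% of all tested). The 21 include AT1G16850, PDF2.1, 264400_at and 245807_at, which had fewer than 2 of the 0 h and 1 h arrays above the filter percentile and passed the filter through their 24 h and 7 d arrays. With the filter applied to the 0 h and 1 h arrays alone, 17 members were tested and 0 passed. The lowest adjusted p was that of the pectin methylesterase gene ATPMEPCRB, which stood at 26.3 ± 3.26 at 0 h and 58.2 ± 0.781 at 1 h (SD, n = 2), a difference of 0.95 ± 0.21 (SE; limma adjusted p = 0.12). The unlisted 249741_at had 1.70 ± 0.47 (adjusted p = 0.325), AT1G11210 1.41 ± 0.61 (adjusted p = 1) and the Dof gene AT1G69570 0.57 ± 0.22 (adjusted p = 0.843). Without 1 h replicate 1, 249741_at was at 2.54 and passed (adjusted p = 0.0275).

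The differences at 1 h ran from -0.53 (PDF2.1) to 1.70 (249741_at), with a median of 0.31 against -0.01 for all tested probe sets. They were above 0 for 19 members. Since the rule favours probe sets low at 0 h, all tested probe sets are not a like measure here. Nothing is read from this median, this count or the share of array orders given next. Both 1 h arrays lay above both 0 h arrays for 6 members and below them for 1, PDF2.1, against 16% and 16.4% of all tested probe sets. The 6 were ATPMEPCRB, AT1G69570, AT1G27200, AT5G62280, 249741_at and 264400_at. Of these 7, PDF2.1 and 264400_at were dim at 0 h and 1 h, and no direction is read from the order of their arrays. For AT1G80130 the 95% interval of the difference was -0.16 to 0.77. For AT1G16850 all 4 signals at 0 h and 1 h lay under the offset of 8, so the offset sets the size of its difference, which was 0.36 here and 0.96 with log2(signal + 1), called in neither.

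The 1 h arrays differed from each other among the members. Replicate 2 lay above both 0 h arrays for 15 of the 21 and replicate 1 for 9, against 31.8% and 28.4% of all tested probe sets. They were more than 2-fold apart for 9 members, where this held for 2.78% of all tested probe sets. The 9 were AT1G16850, PDF2.1, AT4G30650, AT1G11210 and the probe sets 259516_at, 259925_at, 246481_s_at, 245807_at and 249741_at, and replicate 2 was the higher in all but PDF2.1 and 259925_at. At 0 h 6 members were more than 2-fold apart (4.64% of all tested), at 24 h 0 (7.14%) and at 7 d 2, PDF2.1 and 264400_at (4.49%). The 9 at 1 h include AT1G16850, PDF2.1 and 245807_at, and the 6 at 0 h include AT1G16850, 264400_at and 245807_at. These were dim at 0 h and 1 h and passed the filter through their 24 h and 7 d arrays. The shares of all tested probe sets are therefore not a like measure for the counts at 0 h and 1 h. The actin 3' to 5' ratio was 5.32 and 3.95 on the 1 h arrays and 3.84 and 2.95 on the 0 h arrays, and its part in these differences was not tested.

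**Figure D4:**
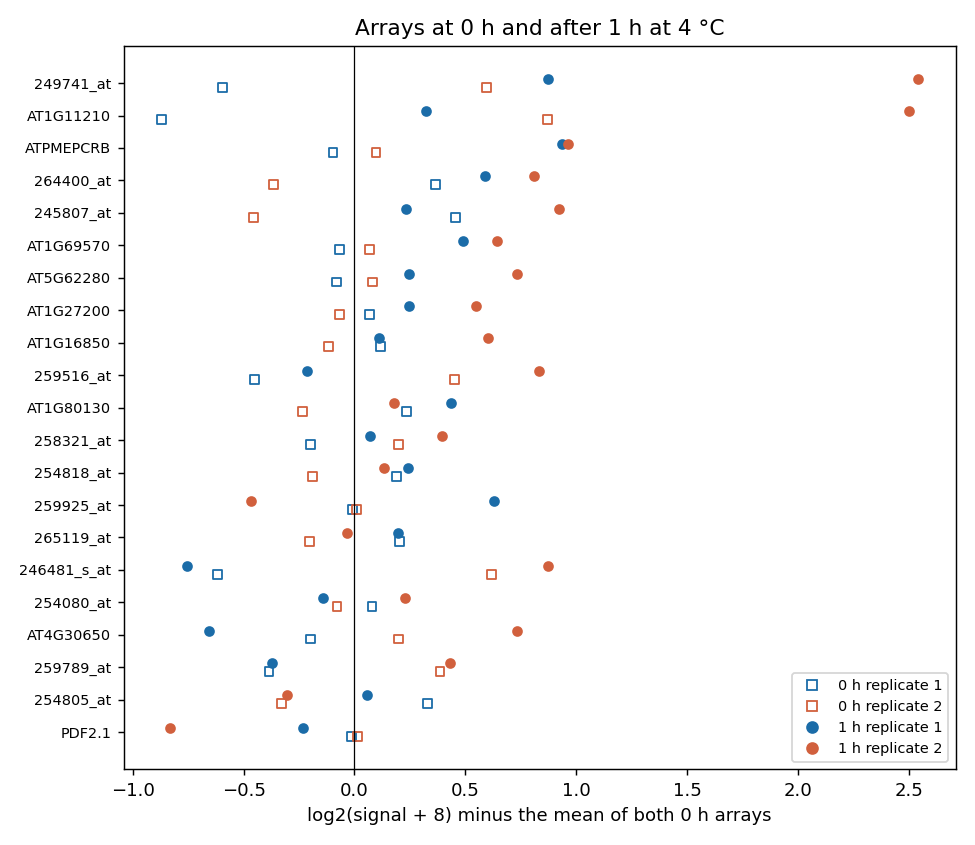
Values on the 0 h arrays (open squares) and 1 h arrays (filled circles) in log2(signal + 8), minus the mean of both 0 h arrays, for the 21 members, with replicate 1 in blue and replicate 2 in orange. For ATPMEPCRB both 1 h arrays lie together near 0.95, while those of 249741_at and AT1G11210 lie more than 1 apart.

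Other genes of cold acclimation were read from lists written down by locus code, with earlier results of these data known. Of 35 entries on the list of cold and dehydration regulated genes 8 had a probe set paired with them alone, and of these only AT1G16850 is a member, since COR15A, COR15B and LTI30 had been left out and COR47, TIL, LEA4-5 and AT4G33550 did not reach the threshold at both times. By limma 7 of the 8 were higher at 24 h (11.8% of all tested probe sets, and 27.1% in either direction), 6 at 7 d (9.18%, and 19.9%) and 0 at 1 h (0.313%). Since AT1G16850, COR15A, COR15B and LTI30 met the rule on these same values, the counts at 24 h and 7 d are a description and nothing is read from them. At 7 d 5 of the 8 were lower than at 24 h, as were 4.46% of all tested probe sets. Nothing is read from this count either, since the 8 include the genes that met the rule on these arrays. After scaling the arrays to equal medians, the split of all called probe sets went from 1771 higher and 2303 lower to 2046 and 1775 at 24 h, and from 1378 and 1611 to 1653 and 1179 at 7 d. The lipocalin gene TIL, whose product protects membranes against oxidation, stood at 769 ± 92.0, 3024 ± 165 and 1554 ± 29.998 at 0 h, 24 h and 7 d (SD, n = 2). LEA4-5, a late embryogenesis abundant protein gene, had a signal of 41.9 ± 9.41 at 24 h and fell to 3.73 ± 2.47 at 7 d, a difference of -2.09 ± 0.44 (limma adjusted p = 0.015). Its 7 d signals lay under the offset of 8, so the offset sets the size of this difference.

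Over all tested probe sets 11.8% were called higher and 15.3% lower at 24 h, and 9.18% higher and 10.7% lower at 7 d, beside which the counts of the other lists stand. The first-response transcription factors had 1 of 14 entries measured, STZ, which was called higher at each time. The flavonoid list had 6 of 20 measured, with 2 higher at 24 h and 0 at 7 d. The list of raffinose, starch and sugar transport had 5 of 18 measured, with 1 higher and 2 lower at both times. All 3 measured genes of 18 entries on the clock list, GI, AT4G33980 and the left-out COR27, were higher at both times. Since COR27 met the rule on these same values, nothing is read from its part in this count. The list of lipid transfer and membrane lipid genes had 3 of 14 measured, with 2 higher at both times. The list of abscisic acid response genes had 0 of 16 measured. Of the root markers 3 of 4 were measured, and PYK10, a root beta-glucosidase gene, was lower at both times, at 1345 ± 545 at 24 h and 864 ± 189 at 7 d. The others were not called, EXPA18 with differences from 0 h of 0.27 at 24 h and 0.38 at 7 d and EXPA7 with -0.16 and -0.35. Of the shoot markers 2 of 5 were measured, and LHCB4.2, a light-harvesting protein gene, was lower at 24 h, at 1576 ± 251 against 3265 ± 989.8 at 0 h. LHCB4.1 was not called, with differences of -0.03 at 24 h and 0.05 at 7 d. The part of tissue makeup in the members' values was not tested. None of these other lists holds a member.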

How the data were processed

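RNA from whole plants was measured on 8 one-colour ATH1 arrays in 4 groups of 2. As deposited, the values are linear intensity signals. The submitters' processing notes name MAS5 without a version or settings. After trimming 2% of probe sets at each end, array means were 100.01, and no scaling was added. Gene names came from GEO's platform annotation, brought up to date by identifier through RefSeq's gene list for TAIR10.1 (names only): 13513 probe sets pair with 1 gene, 503 with several and 8730 are not listed. Of the 22746 probe sets, the 15017 that passed the filter were fitted with limma 3.58.1 in R 4.3.3, 1 mean per group over all 8 arrays (4 residual and 7.67 prior degrees of freedom), an intensity trend and the offset 8. The log2 differences, two-sided p-values and Benjamini-Hochberg adjustment (threshold 0.05) are from that fit. The median standard error was 0.24. The fit was tested on simulated data with known changes. Shares kept are from linear means. The rule for named genes takes members of 1 gene by size of rise or difference, fixed lists and closeness to the threshold; other members were named after their values were seen, so that all 21 are accounted for. The members and lists were chosen with earlier results of these data known. Promoter sequence was not used here. Alternatives were another offset, no filter, equal medians, quantile normalization, no trend, only the arrays of both groups, a replicate block and each array left out.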

Additional observations from a re-analysis of the deposited data

Results flagged for a closer look

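For 5 members the rise against 0 h differed between 24 h and 7 d by a test of the difference itself (limma, log2 scale, 7 d minus 24 h). AT1G16850 was at -1.86, 258321_at at -1.66, 265119_at at -1.33 and AT1G27200 at -0.88, each with both 7 d arrays below both 24 h arrays. The probe set 254805_at was at 1.15, with both 7 d arrays above. Of all tested probe sets 9.3% were called, which is not a like measure, as the members were chosen by rises on these same arrays. The 5 member calls are those already given. Those of 254805_at and AT1G27200 did not hold with each array left out, and that of AT1G27200 also not without the filter or the intensity trend. Light and temperature were the same in both groups per the labels, whereas plant age was not, and age and time in the cold cannot be told apart here.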

How the results depend on the processing

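The number of members depended on the offset added to the signal: 68 probe sets met the rule with log2(signal + 1), all 21 among them, and 13 with log2(signal + 32), all 13 from the 21. The 8 lost with the larger offset were ATPMEPCRB, AT1G69570, AT1G27200, AT1G11210, AT5G62280, 245807_at, 249741_at and 264400_at. With arrays scaled to equal medians 28 met it, and after quantile normalization 23, with all 21 among them. Leaving out 1 array gave 21 to 33, the latter without 0 h replicate 2, and kept 19 to 21 of the 21. For 7 d against 24 h with only the 4 arrays of both groups, 1178 of 14113 probe sets were called, 562 higher and 616 lower. These were not chosen by rises on the arrays as the members were, so they are not a like measure. Of the members, 9 were called in that fit, 2 higher and 7 lower. The count was 3, all lower, without 24 h replicate 2 or without 7 d replicate 1. Over all probe sets this comparison gave 1396 calls, 808 without the filter and 291 to 1358 with 1 array left out. AT1G27200 was no longer called without the filter (adjusted p = 0.0776) or the intensity trend (0.0573), and the other 4 calls were kept in both. For 1 h against 0 h 0 to 1 members were called with 1 array left out and 0 under every other setting, of which the fit to only the 4 arrays of both groups tested 17 of the 21, while the count over all probe sets went from 48 to 23 without the filter and 29 without the trend, and ran from 16 to 56 with 1 array left out. Calls against 0 h over all probe sets numbered 4074 at 24 h and 2989 at 7 d, and as few as 2689 and 1470 with 1 array left out. Replicate numbers are shared by the groups, but nothing in the labels says that they mark a shared batch, and the correlation of the replicate differences was 0.385 between 0 h and 1 h, 0.403 between 0 h and 24 h, 0.243 between 1 h and 24 h, and -0.209, -0.026 and -0.166 between 7 d and 0 h, 1 h and 24 h. A replicate block gave 6 member calls for 7 d against 24 h, adding 259925_at (limma adjusted p = 0.0479). Calls over all 15017 probe sets also went from 1396 to 1644 with it, so nothing is read from the added member. For 1 h against 0 h it gave 0 member calls, and 55 over all probe sets in place of 48.

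Changes of sign touched only differences that were not called. For 7 d against 24 h, AT1G80130 was at -0.0717 after quantile normalization and at -0.13 to 0.20 with 1 array left out. With 1 array left out, AT1G69570 ran from -0.17 to 0.28, 246481_s_at ran from -0.51 to 0.45, AT5G62280 ran from -0.36 to 0.21 and 254080_at from -0.53 to 0.14. For 1 h against 0 h, 259789_at was at -0.00627 with equal medians. With 1 array left out, 259789_at ran from -0.37 to 0.43, 246481_s_at ran from -0.75 to 0.87, AT4G30650 ran from -0.65 to 0.73, 254805_at ran from -0.45 to 0.21, 259516_at ran from -0.21 to 0.83, 254080_at ran from -0.14 to 0.23, 254818_at ran from -0.0016 to 0.38, 265119_at ran from -0.12 to 0.28 and 259925_at from -0.47 to 0.63. Promoter motifs were not run, because no promoter sequence was used here. The number of arrays, and for AT1G16850, PDF2.1, 264400_at and 245807_at a 0 h signal at or below the 40th percentile, limit these values.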

Other observations

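A further 68 probe sets lay just below the threshold, with arrays apart and the smaller of their rises from 1.5 to 2. They comprise 40 of 1 gene and 28 unlisted ones, and for 52 the rise was larger at 24 h. The difference of 7 d minus 24 h was called for 18 of them lower and 2 higher by limma, beside 4.46% and 4.83% of all tested probe sets, and these values too lean on the choice of members by their rises. EXLA2, an expansin-like wall gene, had rises of 3.80 at 24 h and 1.75 at 7 d, a difference of -2.05 ± 0.23 (SE, limma adjusted p = 0.000619). CCT2, an enzyme gene of phosphatidylcholine synthesis, had 2.61 at 24 h and 1.55 at 7 d, a difference of -1.05 ± 0.21 (limma adjusted p = 0.0117). AT4G12490 and AT4G12500 encode lipid transfer-like proteins of the EARLI1 type, whose relatives are known to be induced by cold. The rises of AT4G12490 were 1.77 at 24 h and 3.42 at 7 d, a difference of 1.70 ± 0.39 (limma adjusted p = 0.0217). Those of AT4G12500 were 1.81 at 24 h and 2.60 at 7 d, a difference of 0.76 ± 0.26 that did not pass (limma adjusted p = 0.0919).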
